A study of Mus musculus with 6 samples.

Results

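The conjugating enzymes of the UGT, SULT and GST families were examined in mouse livers without and with the gene for SIRT5, a mitochondrial deacylase. Members were chosen by gene name alone, as entries whose names match the Ugt1, Ugt2 and Ugt3 genes, the Sult genes, and the cytosolic and mitochondrial Gst classes (Gsta, Gstk, Gstm, Gsto, Gstp, Gstt and Gstz). This gave 64 members of the 55536 gene entries in the deposited table, of which 21 were UGT, 21 SULT and 22 GST genes. The rule uses no measured value.

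The study sequenced bulk RNA of 3 Sirt5-/- and 3 Sirt5+/+ liver samples from male mice of the C57BL/6 strain. The Sirt5-/- group lacked Sirt5, and the Sirt5+/+ group was its wild-type comparison. All had been injected hydrodynamically at 4 weeks of age, a procedure that drives plasmid DNA into liver cells with a rapid, large-volume infusion. Both genotypes thus carried YAP5SA, a constitutively active YAP (a co-activator of transcription), delivered as 50 µg of the plasmid PB[CMV-myc-YAP5SA]DS with a CMV promoter, together with 10 µg of the transposase plasmid Act-PBase. Livers were taken 20 days later. The labels also name a control plasmid, PB[Act-RFP]DS, but all 6 samples are labelled as given YAP5SA, so no liver without YAP5SA was compared here. The labels do not say that the samples come from separate animals, so p-values measure only the spread between these samples.

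Conjugating enzymes attach a polar group to drugs, hormones, bilirubin, bile acids and reactive lipids, so that liver cells can export them into bile or blood. UGT enzymes of the endoplasmic reticulum use UDP-glucuronic acid, SULT enzymes of the cytosol use the activated sulfate PAPS, and GST enzymes use glutathione. In liver these genes are expressed mainly in hepatocytes, and many respond to the receptors AHR, CAR and PXR or to the stress regulator NRF2.

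Library totals ran from 19307808 to 24330797 estimated counts. Sirt5 had 14, 45 and 18 counts in Sirt5-/- livers and 352, 441 and 96 counts in Sirt5+/+ livers, with a log2 fold change of -4.13 (edgeR quasi-likelihood test, adjusted p = 0.00146). Sirt5+/+ replicate 3 stood apart from its group, with 46.4% of counts from mitochondrially encoded genes, against 7.20 and 6.58% in the other Sirt5+/+ libraries. The Sirt5-/- libraries held 40.8, 21.5 and 17.5%. The hepatocyte markers used to check the tissue label summed to 27650 to 51770 CPM (counts scaled to a common library size, with TMM factors between libraries) in Sirt5-/- livers and 117500 to 159200 CPM in Sirt5+/+ livers. In bulk tissue, fewer cells of a type and less RNA per cell cannot be told apart.

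Of the 64 members, 46 passed the filter on low counts, namely 18 UGT, 8 SULT and 20 GST genes. Among the 18 that did not, 11 had no count in any library, made up of Ugt2a1, Ugt2a2 and 9 SULT genes: Sult1c1, Sult2a2 to Sult2a6, Sult3a1, Sult3a2 and Sult6b2. A count of 0 allows up to 3 counts in a library, which is 0.0827 to 0.393 CPM. The other 7 were Sult1e1, Sult2a1, Sult4a1, Sult6b1, Gsto2, Gstt4 and Ugt1a2, with at most 19 counts in a library except for Ugt1a2. Ugt1a2 had 51.82 counts in Sirt5-/- replicate 3 and none elsewhere.

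Of the 46 members tested, 29 were lower in Sirt5-/- livers, 2 were higher and 15 did not pass the test (edgeR quasi-likelihood test, adjusted p under 0.05). Over all 14799 genes tested, 34.5% passed, with 17.1% lower and 17.4% higher. The median log2 fold change of the members was -1.73, beside -0.08 over all genes tested and -1.85 over 18 hepatocyte markers, of which 13 were lower. With library totals in place of TMM factors, the median of all genes shifted to 0.60 (2438 genes higher and 325 lower). Then 6 UGT and 3 GST genes were lower while 1 UGT and 1 SULT gene were higher. Of the 18 hepatocyte markers, 2 were lower with library totals, with a median of -1.37. That scaling ended the calls of 20 of the 31 called members, and the 11 that kept them were Ugt1a1, Ugt1a5, Ugt1a6a, Ugt1a6b, Ugt1a9, Ugt1a10, Ugt2b38, Sult2b1, Gsta3, Gstm4 and Gstz1. Without Sirt5+/+ replicate 3, 14 UGT, 4 SULT and 14 GST genes were lower, and 2 UGT, 1 SULT and 2 GST genes were higher. Calls also rose over all genes in that setting, to 7647 of 15608 tested, with 3991 higher and 3656 lower.

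By family, 14 of 18 UGT genes were lower (77.8%) and 1 was higher, with a median log2 fold change of -1.91. For SULT genes, 4 of 8 were lower (50.0%) and 1 was higher, with a median of -1.38. For GST genes, 11 of 20 were lower (55.0%) with a median of -1.71. The GST share depended on the test. DESeq2 called 15 of 18 UGT, 4 of 8 SULT and 15 of 20 GST genes lower, and limma-voom 15, 4 and 12. The authors' deposited table had 14 of 17 UGT, 4 of 8 SULT and 15 of 20 GST genes lower. Gstt1, Gstm3 and Gstm1 narrowly missed the threshold (edgeR, adjusted p = 0.0504, 0.0527 and 0.0589), as did Ugt2b34 (0.0524). The count of higher GST genes was 0 by edgeR, also at an unadjusted p under 0.05, and 0 by DESeq2 and limma-voom. The difference between families was not tested. In TMM-scaled CPM the libraries of the genotypes did not overlap for 15 UGT, 5 SULT and 11 GST genes, where 49.8% of all genes tested showed no overlap. Overlap of levels is judged on this scale below unless stated otherwise. It depends on the TMM factor of Sirt5+/+ replicate 3, which was 0.396.

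**Figure D1:**
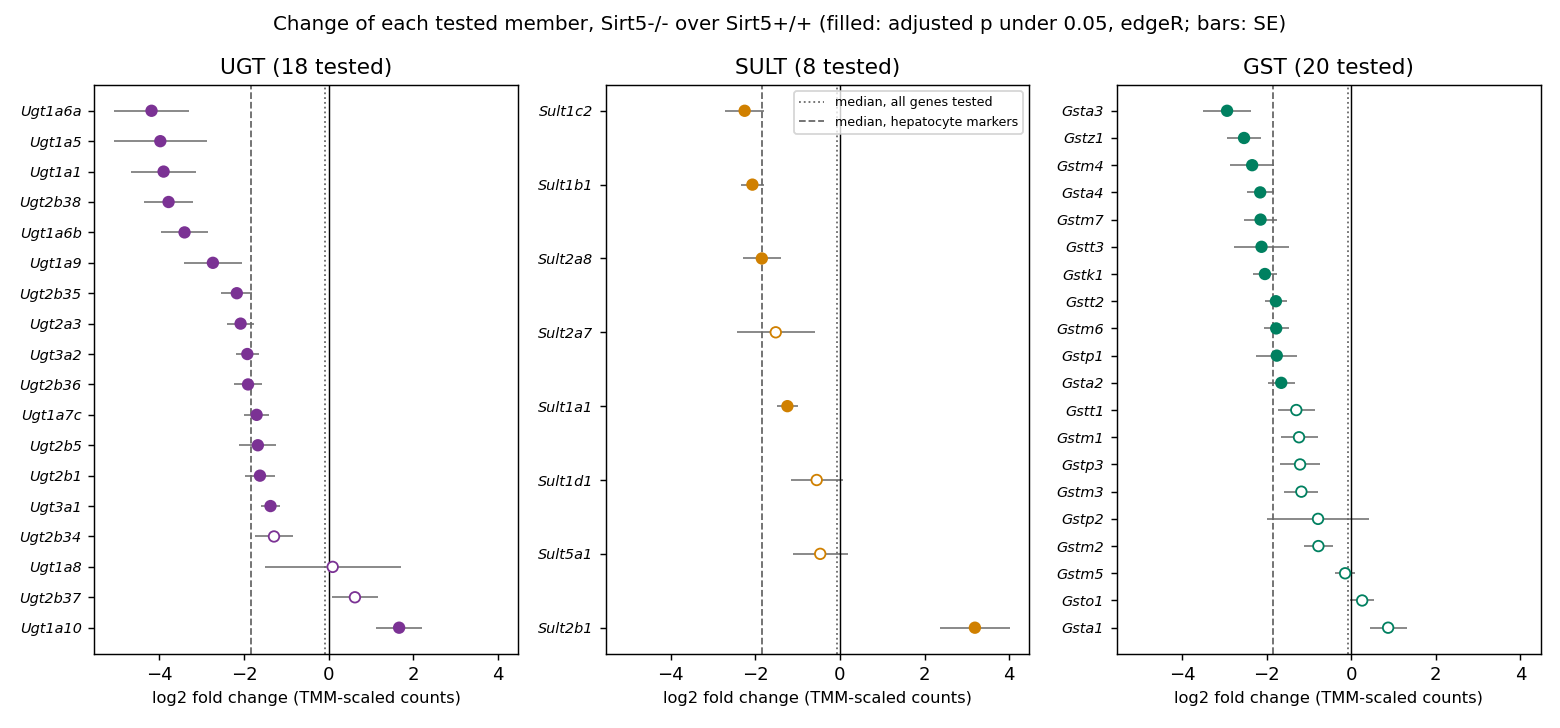
Log2 fold change of each tested member, Sirt5-/- over Sirt5+/+, on the x axis, with bars for the standard error and filled points for adjusted p under 0.05 (edgeR). Dotted and dashed lines mark the median of all genes tested (-0.08) and of the hepatocyte markers (-1.85), and most UGT and GST points lie at or left of -1. The rises are Ugt1a10 at 1.67 and Sult2b1 at 3.19.

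Some members share sequence, so that reads may be split between them. Sharing was measured as the percent of a gene's 31-base transcript words that occur in another gene on either strand. Among members sharing under 20% of their words, 6 of 7 UGT, 4 of 8 SULT and 9 of 14 GST genes were lower, and 1 SULT gene was higher.

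The Ugt2b genes, whose enzymes act on steroids, bile acids and drugs, held the most abundant UGT transcripts. Ugt2b5 had 374, 243 and 174 CPM in Sirt5-/- livers and 591, 736 and 1195 CPM in Sirt5+/+ livers. Its log2 fold change was -1.67 ± 0.44 (SE; edgeR, adjusted p = 0.0193), and every Sirt5-/- library lay below every Sirt5+/+ library. Ugt2b5 shares 56.4% of its words with other genes, chiefly Ugt2b38, so its level is uncertain. Its call was lost without Sirt5-/- replicate 2 or 3, which took the log2 fold change to -1.61 and -1.44, and with library totals (-0.99; edgeR, adjusted p = 0.351).

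Ugt2b36, with 12% of its words shared, had 185, 166 and 115 CPM in Sirt5-/- livers and 505, 563 and 679 CPM in Sirt5+/+ livers, with a log2 fold change of -1.91 ± 0.33 (edgeR, adjusted p = 0.00409). Ugt2b1, with 0.8% shared, had 266, 189 and 139 CPM in Sirt5-/- livers and 525, 664 and 642 CPM in Sirt5+/+ livers. Its log2 fold change was -1.62 ± 0.35 (edgeR, adjusted p = 0.00927), and the call was lost without Sirt5-/- replicate 2 or 3 (-1.59 and -1.41). For both genes the genotypes did not overlap, and library totals ended the calls of Ugt2b36 (-1.26; edgeR, adjusted p = 0.209) and Ugt2b1 (-1.08; adjusted p = 0.302).

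Ugt2b38 fell furthest among the Ugt2b genes. It had 7.06, 2.12 and 1.66 CPM in Sirt5-/- livers and 32.4, 56.5 and 56.9 CPM in Sirt5+/+ livers. The log2 fold change was -3.78 ± 0.58 (edgeR, adjusted p = 0.00280), and the call held in all 19 settings tried, from -4.69 to -3.35. Of its words, 52.9% occur elsewhere, mostly in Ugt2b5. Of the remaining Ugt2b genes, Ugt2b35 fell by 2.17 on the log2 scale (edgeR, adjusted p = 0.00362). Ugt2b34 at -1.29 and Ugt2b37 at 0.62 did not pass the test.

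Outside the Ugt2b group, Ugt2a3 fell by 2.08 (edgeR, adjusted p = 0.00299), Ugt3a2 by 1.92 (adjusted p = 0.00228) and Ugt3a1 by 1.37 (adjusted p = 0.00374) on the log2 scale. The human UGT3A enzymes are known for using sugars other than glucuronic acid. Ugt3a1 had 8.81, 7.11 and 6.13 CPM in Sirt5-/- livers and 19.8, 19.2 and 18.0 CPM in Sirt5+/+ livers.

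The Ugt1a locus on chromosome 1 (chr1:88055388-88220002, GRCm38) is built so that each gene has its own first exon and shares the later exons with the others. Its 9 entries therefore share most of their sequence, from 53.0 to 84.2% of words, and the split of reads between them depends on the first exons. Ugt1a1 makes the enzyme that conjugates bilirubin, and Ugt1a6a and Ugt1a6b make enzymes for phenols. The 250 bases before the RefSeq start of Ugt1a1, which fell, of Ugt1a10, which rose, and of Ugt1a7c, which took the largest share of the locus in Sirt5-/- livers, are shown because they belong to separate first exons. They are from RefSeq on GRCm38.p6, plus strand, at chr1:88211709-88211958, chr1:88055161-88055410 and chr1:88094751-88095000, and capitals mark the HNF1 half-site GTTAAT or its other strand ATTAAC.
Ugt1a1: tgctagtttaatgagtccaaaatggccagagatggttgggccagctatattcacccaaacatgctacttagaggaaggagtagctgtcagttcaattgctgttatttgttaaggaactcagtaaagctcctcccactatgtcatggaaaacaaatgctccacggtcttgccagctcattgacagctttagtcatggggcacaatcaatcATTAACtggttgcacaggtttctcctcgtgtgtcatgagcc
Ugt1a10: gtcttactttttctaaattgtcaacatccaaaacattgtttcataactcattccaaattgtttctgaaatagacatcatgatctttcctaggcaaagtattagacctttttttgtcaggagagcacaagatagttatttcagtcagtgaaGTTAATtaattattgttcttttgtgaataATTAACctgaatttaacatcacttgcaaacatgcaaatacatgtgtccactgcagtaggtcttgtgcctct
Ugt1a7c: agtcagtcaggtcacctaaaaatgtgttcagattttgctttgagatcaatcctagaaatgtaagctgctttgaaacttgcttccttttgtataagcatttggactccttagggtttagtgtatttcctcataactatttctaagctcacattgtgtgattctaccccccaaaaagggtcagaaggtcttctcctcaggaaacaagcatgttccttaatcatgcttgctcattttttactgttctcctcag

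The half-site occurred once before Ugt1a1, at 2 places before Ugt1a10 and not before Ugt1a7c. It was present in 6 of the 16 tested UGT genes with a RefSeq promoter, 2 of 7 SULT and 1 of 18 GST genes, where 6.43% of 32851 promoters of the same length held it. A match of these letters is a description and not a bound site. The xenobiotic response element core GCGTG (other strand CACGC) was in 8 of the 41 tested members with a promoter, beside 28.2% of all promoters. The antioxidant response element core TGACNNNGC (other strand GCNNNGTCA) was in 2 of 41, Gsta3 and Gstm5, beside 10.2% of all promoters.

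Summed over the locus, the Ugt1a entries had 94.6, 120 and 97.8 CPM in Sirt5-/- livers and 862, 616 and 339 CPM in Sirt5+/+ livers. The sum fell by 2.54 ± 0.41 on the log2 scale (edgeR with the entries as 1 gene, adjusted p = 0.00327). The genotypes did not overlap in TMM-scaled CPM. In unscaled counts Sirt5+/+ replicate 3 had 2586, beside 1622, 4348 and 3543 in Sirt5-/- livers, so they overlapped. The summed entry was fitted with TMM factors only. The fall of the summed locus does not depend on how reads were divided among its entries.

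Ugt1a1 had 12.5, 11.7 and 9.83 CPM in Sirt5-/- livers and 274, 209 and 25.0 CPM in Sirt5+/+ livers. The low Sirt5+/+ value is that of replicate 3, which lay above every Sirt5-/- library only after TMM scaling (factor 0.396). In unscaled counts that library had 190.93, under the 213.73, 425.5 and 356.47 of the Sirt5-/- livers. The log2 fold change was -3.90 ± 0.76 (edgeR, adjusted p = 0.00612), or -4.36 without Sirt5+/+ replicate 3.

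Ugt1a6a had 0.758, 7.83 and 5.05 CPM in Sirt5-/- livers and 120, 112 and 20.3 CPM in Sirt5+/+ livers, with a log2 fold change of -4.19 ± 0.90 (edgeR, adjusted p = 0.00865). Ugt1a6b averaged 7.64 ± 0.91 CPM in Sirt5-/- livers and 80.8 ± 54.9 CPM in Sirt5+/+ livers (SD, n = 3 each), a log2 fold change of -3.41 (edgeR, adjusted p = 0.00327). The Ugt1a1, Ugt1a6a and Ugt1a6b calls held in all 18 settings in which these entries were fitted. Sirt5+/+ replicate 3 was again the lowest of its group for both.

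Ugt1a5 had 0, 4.82 and 0.801 CPM in Sirt5-/- livers and 47.1, 33.7 and 11.5 CPM in Sirt5+/+ livers. Its log2 fold change was -3.98 ± 1.10 (edgeR, adjusted p = 0.0237), and the authors' deposited table gives it an adjusted p of 0.0664. The call was lost without Sirt5-/- replicate 3 (-3.60), Sirt5+/+ replicate 1 (-3.50) or Sirt5+/+ replicate 2 (-3.94). Ugt1a9 fell by 2.74 on the log2 scale (edgeR, adjusted p = 0.0166), and leaving out any of the same 3 libraries ended its call as well (adjusted p up to 0.0702). Ugt1a7c fell by 1.70 (edgeR, adjusted p = 0.00400).

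Ugt1a10 moved the other way. It had 7.35, 6.31 and 5.49 CPM in Sirt5-/- livers and 3.80, 0.821 and 1.31 CPM in Sirt5+/+ livers, with no overlap. It rose by 1.67 ± 0.54 on the log2 scale (edgeR, adjusted p = 0.0442). The call was lost when any Sirt5-/- library or Sirt5+/+ replicate 2 was left out, and 77.9% of its words are shared.

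Ugt1a8 had 3.73, 6.45 and 7.26 CPM in Sirt5-/- livers and 0, 0 and 17.7 CPM in Sirt5+/+ livers, and did not pass the test (log2 fold change 0.09; edgeR, adjusted p = 0.970). All of its Sirt5+/+ counts came from replicate 3. Without that library Ugt1a8 passed as higher (log2 fold change 10.4; edgeR, adjusted p = 9.80e-05). The remaining Sirt5+/+ values are then 0, so the size of that rise is not well measured, and 66.0% of its words are shared.

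The make-up of the locus also differed between libraries. Ugt1a7c held 63.8, 56.3 and 55.8% of Ugt1a counts in Sirt5-/- livers and 26.3, 22.9 and 66.8% in Sirt5+/+ livers. Ugt1a1 held 13.2, 9.78 and 10.1% in Sirt5-/- livers and 31.8, 33.9 and 7.38% in Sirt5+/+ livers. In both shares Sirt5+/+ replicate 3 lay beyond the Sirt5-/- libraries, away from its own group, so the genotypes overlapped. That library and Sirt5-/- replicate 1 were the richest in mitochondrially encoded counts, and the part of this in the shares was not tested.

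**Figure D2:**
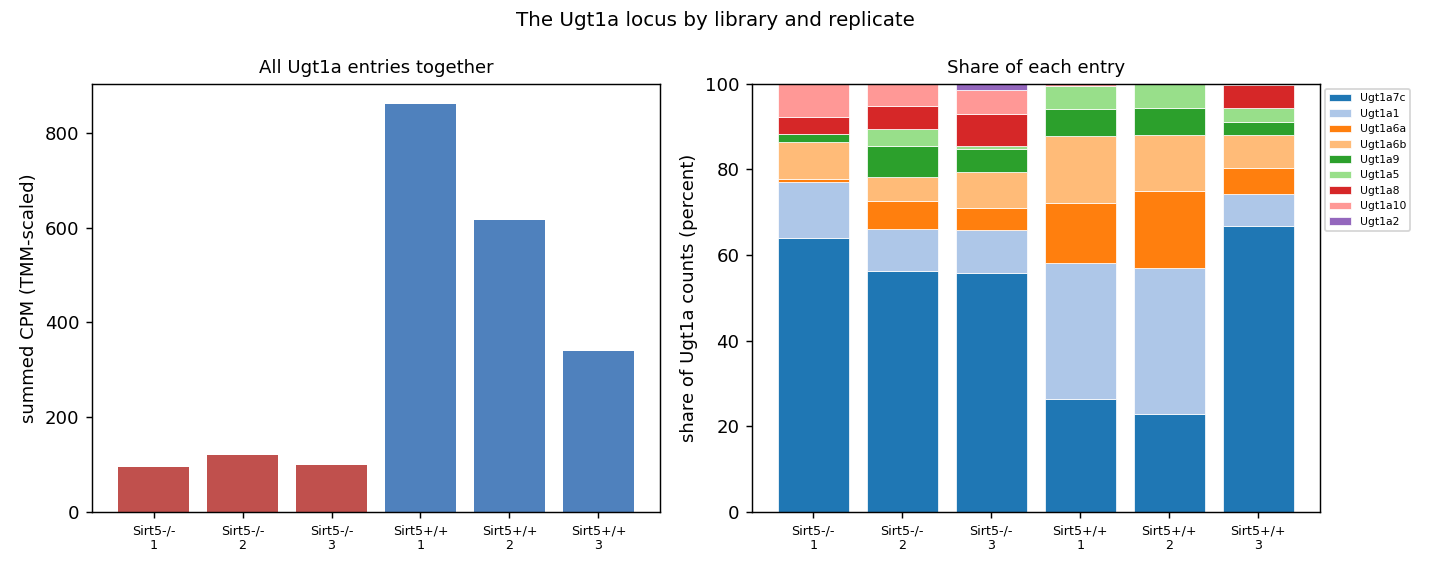
Left, summed TMM-scaled CPM of all Ugt1a entries in each library, and right, the percent of Ugt1a counts given to each entry. The Sirt5-/- bars stand at 94.6 to 120 CPM and the Sirt5+/+ bars at 339 to 862 CPM, while the shares in Sirt5+/+ replicate 3 (66.8% Ugt1a7c) resemble those of the Sirt5-/- libraries.

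Among the SULT genes, Sult2a8 was the most abundant. The enzyme is known in mouse liver for sulfating bile acids. It had 204, 159 and 128 CPM in Sirt5-/- livers and 278, 655 and 832 CPM in Sirt5+/+ livers. The log2 fold change was -1.85 ± 0.45 (edgeR, adjusted p = 0.0151) with no overlap. The call was lost without Sirt5-/- replicate 2 (-1.82) or replicate 3 (-1.69), and with library totals (-1.15; edgeR, adjusted p = 0.263).

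Sult1a1, which sulfates phenols, had 69.2, 63.1 and 50.2 CPM in Sirt5-/- livers and 134, 159 and 138 CPM in Sirt5+/+ livers. Its log2 fold change was -1.24 ± 0.26 (edgeR, adjusted p = 0.00761). In TMM-scaled CPM the spread within each genotype was small beside the gap. In unscaled counts Sirt5+/+ replicate 3 had 1054, under the 1186, 2288 and 1817 of Sirt5-/- livers, so the genotypes overlapped. The Sult1a1 call was lost without Sirt5-/- replicate 2 (-1.26) or replicate 3 (-1.11). With library totals it was lost as well (-0.67, edgeR, adjusted p = 0.560).

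Sult1b1, an enzyme for thyroid hormones and phenols, had 5.6, 5.13 and 3.29 CPM in Sirt5-/- livers and 17.3, 21.2 and 20.2 CPM in Sirt5+/+ livers. It fell by 2.07 ± 0.28 on the log2 scale (edgeR, adjusted p = 0.00204). Sult1c2 was much lower in level, with 1.22, 0.744 and 0.442 CPM in Sirt5-/- livers and 4.37, 3.79 and 3.01 CPM in Sirt5+/+ livers, and fell by 2.25 ± 0.46 (edgeR, adjusted p = 0.00759). Neither gene overlapped between genotypes, and library totals ended both calls.

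Sult1d1, which acts on catecholamines, had 104, 44.3 and 28.8 CPM in Sirt5-/- livers and 35.3, 68.3 and 156 CPM in Sirt5+/+ livers. The genotypes overlapped widely, and the log2 fold change was -0.55 ± 0.61 (edgeR, adjusted p = 0.525). The sign turned to 0.25 without Sirt5+/+ replicate 3 and to 0.19 with library totals. Sult2a7 at -1.52 and Sult5a1 at -0.47 did not pass either.

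Sult2b1, which sulfates cholesterol and other sterols and is known from skin, was described after its values were seen, since its mean lies under 1 CPM. It had 22, 42 and 38 counts in Sirt5-/- livers and 6, 1 and 0 counts in Sirt5+/+ livers. These are 1.28, 1.16 and 1.05 CPM against 0.285, 0.0357 and 0 CPM, and the values of Sirt5+/+ replicates 2 and 3 lie under the floor of 3 counts. It rose by 3.19 ± 0.83 on the log2 scale (edgeR, adjusted p = 0.0190), and the call was lost when any Sirt5-/- library (3.11 to 3.27) or Sirt5+/+ replicate 2 (2.59) was left out.

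**Figure D3:**
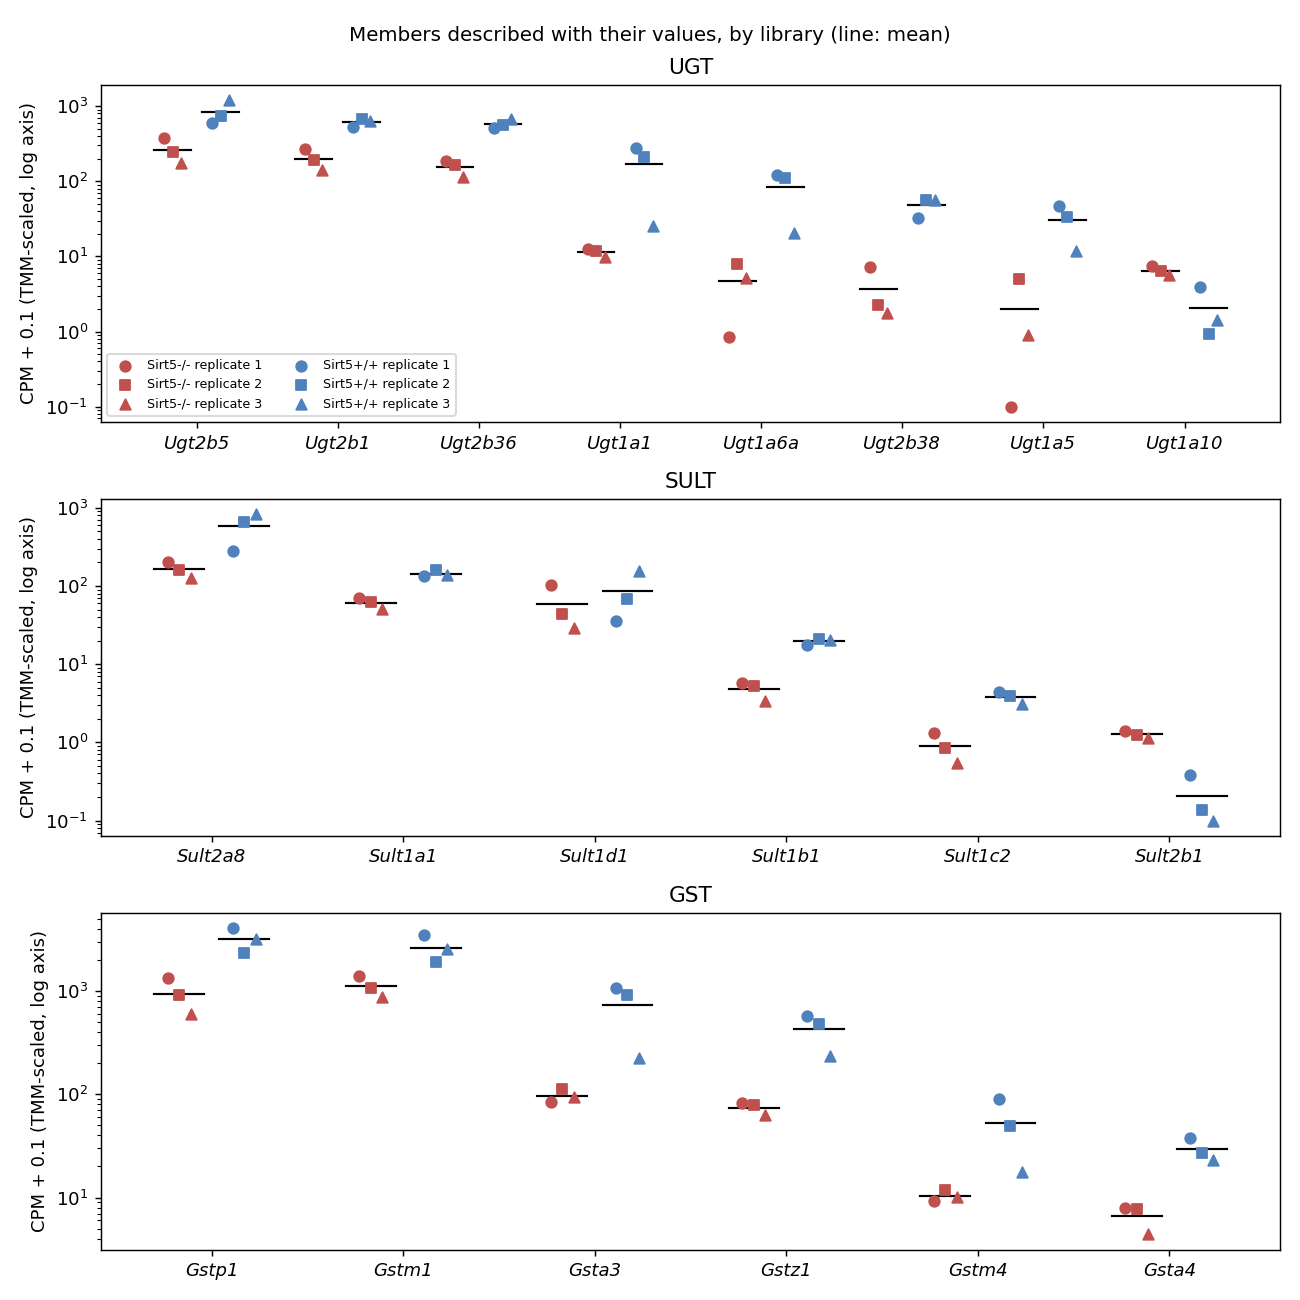
TMM-scaled CPM plus 0.1 on a log axis for each member described with its values, by library, with a line at the mean of each genotype. The Sirt5-/- points lie under the Sirt5+/+ points for the members that fell and above them for Ugt1a10 and Sult2b1, and they overlap for Sult1d1 (28.8 to 104 CPM in Sirt5-/- and 35.3 to 156 CPM in Sirt5+/+).

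The GST genes were the most abundant of the families. Summed TPM, a deposited level that accounts for transcript length, were 5222, 5972 and 5052 in Sirt5-/- livers and 13402, 10356 and 4496 in Sirt5+/+ livers. UGT genes summed to 465, 689 and 589 TPM in Sirt5-/- livers and 1682, 2246 and 608 TPM in Sirt5+/+ livers. SULT genes summed to 168, 227 and 202 TPM in Sirt5-/- livers and 312, 686 and 199 TPM in Sirt5+/+ livers. TPM are not TMM-scaled, and Sirt5+/+ replicate 3 lies within or below the Sirt5-/- range of the GST, UGT and SULT sums. The genotypes also overlapped in TPM for Gstp1, Gsta3, Gstz1, Ugt2b1, Ugt2b36, Ugt1a1, Ugt1a5, Ugt1a6a, Ugt1a6b, Sult1a1, Sult1b1 and Sult1c2. They did not overlap in TPM for Ugt2b5, Ugt2b38, Ugt1a10, Sult2a8 and Sult2b1.

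Gstp1, of the pi class that conjugates electrophiles, and Gstm1, of the mu class, led the family. Gstp1 had 1319, 910.5 and 599 CPM in Sirt5-/- livers and 4072, 2347 and 3159 CPM in Sirt5+/+ livers. It fell by 1.76 ± 0.48 on the log2 scale (edgeR, adjusted p = 0.0230) with no overlap. The call was lost without Sirt5-/- replicate 2 (-1.73), Sirt5-/- replicate 3 (-1.51) or Sirt5+/+ replicate 1 (-1.52), and with library totals (-1.21; edgeR, adjusted p = 0.225).

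Gstp2 shares 60.3% of its words, chiefly with Gstp1. It had 252, 93.0 and 59.9 CPM in Sirt5-/- livers and 28.0, 20.5 and 651 CPM in Sirt5+/+ livers, a log2 fold change of -0.78 ± 1.2 that did not pass (edgeR, adjusted p = 0.648). Without Sirt5+/+ replicate 3 it turned to 2.54 and passed the test as higher (edgeR, adjusted p = 0.00643). Gstp2 took 16.1, 9.27 and 9.10% of the counts of Gstp1 and Gstp2 together in Sirt5-/- livers and 0.682, 0.864 and 17.1% in Sirt5+/+ livers. The summed pair had 1572, 1003 and 659 CPM in Sirt5-/- livers and 4100, 2367 and 3810 CPM in Sirt5+/+ livers, with no overlap.

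Gstm1 had 1395, 1075 and 872 CPM in Sirt5-/- livers and 3440, 1901 and 2518 CPM in Sirt5+/+ livers. The genotypes did not overlap on this scale, but the log2 fold change of -1.23 ± 0.44 missed the threshold (edgeR, adjusted p = 0.0589). In TPM they overlapped, with 1908, 2388 and 2221 in Sirt5-/- livers and 3343, 2235 and 1346 in Sirt5+/+ livers. DESeq2, limma-voom and the authors' deposited table placed Gstm1 past the threshold as lower. Of the other mu class genes, Gstm4, Gstm6 and Gstm7 fell, by 1.77 to 2.34 on the log2 scale. Gstm2, Gstm3 and Gstm5 did not pass, with log2 fold changes of -0.78, -1.18 and -0.14.

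Gsta3, an alpha class enzyme known in mice for detoxifying aflatoxin, fell furthest in the family. It had 83.2, 112 and 94.2 CPM in Sirt5-/- livers and 1068, 919 and 222 CPM in Sirt5+/+ livers. The log2 fold change was -2.93 ± 0.58 (edgeR, adjusted p = 0.00630), and -3.31 without Sirt5+/+ replicate 3, the lowest of its group. The call held in all 19 settings. In TPM the genotypes overlapped, with 49.63 in Sirt5+/+ replicate 3 beside 43.69, 124.19 and 126.75 in Sirt5-/- livers.

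Gstz1, the zeta class isomerase of tyrosine breakdown, had 81.5, 78.5 and 62.3 CPM in Sirt5-/- livers and 572, 478 and 236 CPM in Sirt5+/+ livers. It fell by 2.53 ± 0.40 (edgeR, adjusted p = 0.00297), also in all 19 settings. Its words are shared to 11.3%, mostly with Pomt2 on the opposite strand. In TPM the genotypes overlapped, with 44.62 in Sirt5+/+ replicate 3 beside 36.07, 67.02 and 62.56 in Sirt5-/- livers.

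Gsta4, which conjugates the lipid peroxidation product hydroxynonenal, had 7.76, 7.72 and 4.31 CPM in Sirt5-/- livers and 38.0, 26.6 and 22.9 CPM in Sirt5+/+ livers. Its log2 fold change was -2.15 ± 0.32 (edgeR, adjusted p = 0.00260). Gstm4 had 9.21, 11.7 and 10.1 CPM in Sirt5-/- livers and 90.7, 49.0 and 17.6 CPM in Sirt5+/+ livers, with a log2 fold change of -2.34 ± 0.52 (edgeR, adjusted p = 0.0102). Neither gene overlapped between genotypes in TMM-scaled CPM, but both did in TPM. Sirt5+/+ replicate 3 had 3.59 TPM for Gstm4, under the 4.58, 11.25 and 10.89 TPM of Sirt5-/- livers. For Gsta4 it had 7.97 TPM, beside 6.47, 12.17 and 7.83 TPM in Sirt5-/- livers. Library totals ended the Gsta4 call, and leaving out Sirt5-/- replicate 3 ended that of Gstm4 (-2.32).

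The other GST classes were mixed. Gstk1, a mitochondrial and peroxisomal enzyme, fell by 2.04 (edgeR, adjusted p = 0.00227) and the theta class gene Gstt2 by 1.78 (edgeR, adjusted p = 0.00234) on the log2 scale. Gstt3 fell by 2.12 (edgeR, adjusted p = 0.0345), although its genotypes overlapped and its call held in 10 of 19 settings. Gsto1, the omega class thiol transferase, had 137, 94.9 and 107 CPM in Sirt5-/- livers and 111, 74.6 and 97.5 CPM in Sirt5+/+ livers. These overlap, with a log2 fold change of 0.26 ± 0.28 (edgeR, adjusted p = 0.508).

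Gsta1 and Gsta2 share most of their sequence with each other or with Gm3776 (92.9% of the words of Gsta1 and 60.7% of those of Gsta2 occur elsewhere). Gsta2 fell by 1.65 (edgeR, adjusted p = 0.00566), and Gsta1 at 0.87 did not pass (edgeR, adjusted p = 0.156). Gsta1 took 56.1, 46.9 and 44.4% of the counts of both in Sirt5-/- livers and 8.29, 11.7 and 31.1% in Sirt5+/+ livers, with no overlap. Without Sirt5+/+ replicate 3, Gsta1 passed as higher at 1.3 (edgeR, adjusted p = 0.0214).

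**Figure D4:**
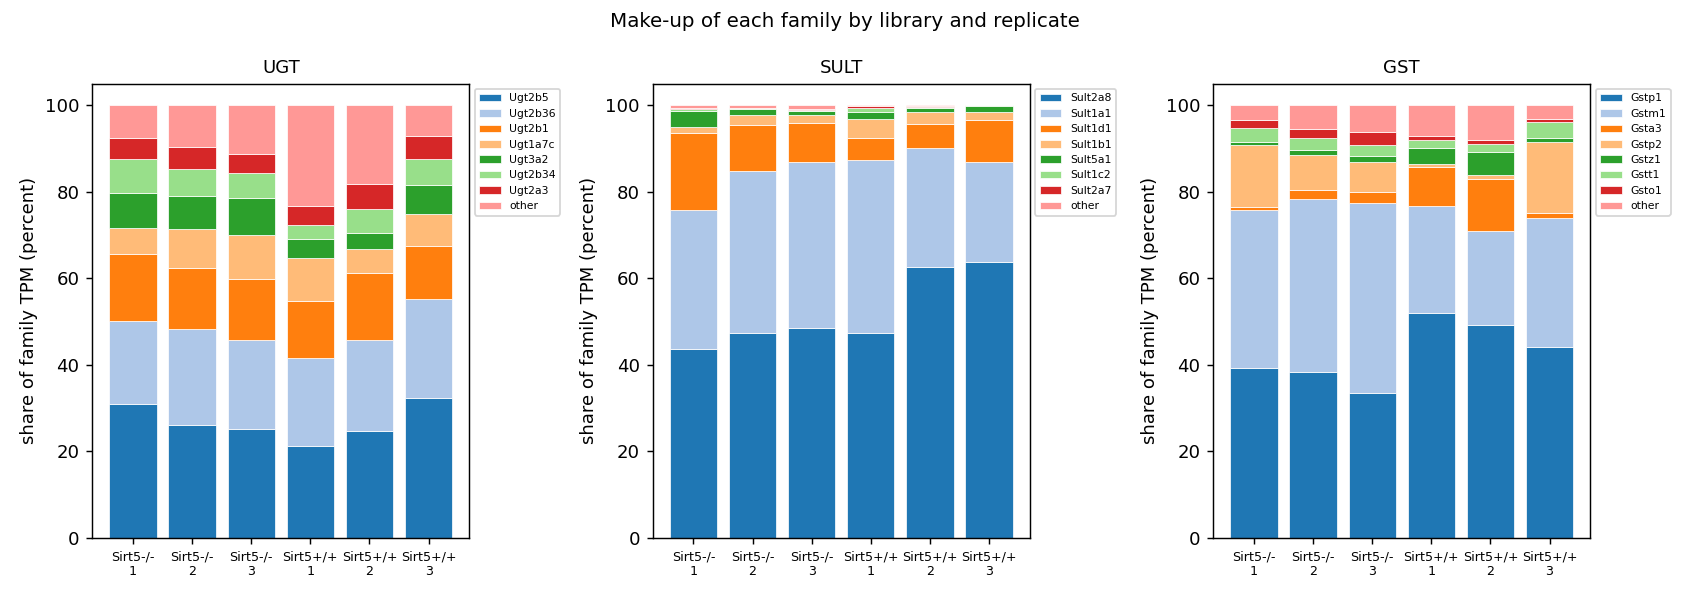
Percent of the summed TPM of each family held by its 7 most abundant members, by library, with the remaining members as other. Gstp1 holds 33.4 to 39.2% of GST TPM in Sirt5-/- livers and 44.0 to 51.9% in Sirt5+/+ livers, and Gsta3 ranges from 0.837 to 2.51% in Sirt5-/- livers and from 1.1 to 12% in Sirt5+/+ livers. The Gstp1 share depends on how reads were divided between Gstp1 and Gstp2.

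Within the GST family, Gstm1 held 36.5, 40.0 and 44.0% of TPM in Sirt5-/- livers and 24.9, 21.6 and 29.9% in Sirt5+/+ livers, so its share was higher in each Sirt5-/- library. The share of Gstp1 was lower in each, at 39.2, 38.4 and 33.4% in Sirt5-/- livers and 51.9, 49.3 and 44.0% in Sirt5+/+ livers. Gstp1 shares 38.5% of its words with Gstp2, so its share depends on how reads were divided between them. Gstp2 held 14.2, 7.97 and 7.06% in Sirt5-/- livers and 0.880, 0.907 and 16.4% in Sirt5+/+ livers. Within the SULT family Sult2a8 held 43.7 to 48.5% in Sirt5-/- livers and 47.2 to 63.7% in Sirt5+/+ livers, which overlap. Ugt2b5, the leading UGT transcript, held 25.1 to 30.9% in Sirt5-/- livers and 21.2 to 32.2% in Sirt5+/+ livers. These shares were not tested.

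Of 18 hepatocyte markers, 13 were lower in Sirt5-/- livers with TMM factors. With library totals 2 were lower by edgeR, or 9 at an unadjusted p under 0.05. Since the markers were themselves lower with TMM factors, each member was also set against their mean log2 level in the same library. On this relative scale 10 members were higher and 5 lower in Sirt5-/- livers (limma, adjusted p under 0.05). Over all genes tested, 76% passed on the same scale, 75.5% higher and 0.507% lower, and the median was 1.84. The members' median was 0.15, with -0.10 for UGT, 0.68 for SULT and 0.27 for GST genes. The scale takes the markers as its zero, so it gives the change beside those markers and not an amount of RNA per cell.

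The 5 members lower than the hepatocyte markers were all UGT genes. Ugt2b38 was at -2.14 ± 0.50 (limma, adjusted p = 0.00211), in all 7 settings. The other 4 lie in the Ugt1a locus: Ugt1a5 at -3.40 (limma, adjusted p = 0.0135), Ugt1a6a at -2.50 (adjusted p = 0.0134), Ugt1a1 at -1.49 (adjusted p = 0.0409) and Ugt1a6b at -1.28 (adjusted p = 0.0247). Ugt1a1 and Ugt1a6b kept their calls in 3 of the 7 settings each, and Ugt1a5 and Ugt1a6a in 6 each. All 5 share more than 50% of their words with other genes.

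The 10 members higher on this scale were Ugt1a8, Ugt1a10, Ugt2b37, Sult1d1, Sult2b1, Gsta1, Gstm2, Gstm5, Gsto1 and Gstp2. Gsto1 was at 2.09 ± 0.34 (limma, adjusted p = 2.23e-04) and Gstm5 at 1.68 ± 0.43 (limma, adjusted p = 0.00343), both in all 7 settings. Gstp2 and Sult1d1 held their calls in 3 and 2 of the 7 settings. With 75.5% of all genes higher on this scale, a call in this direction does not set a member apart.

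**Figure D5:**
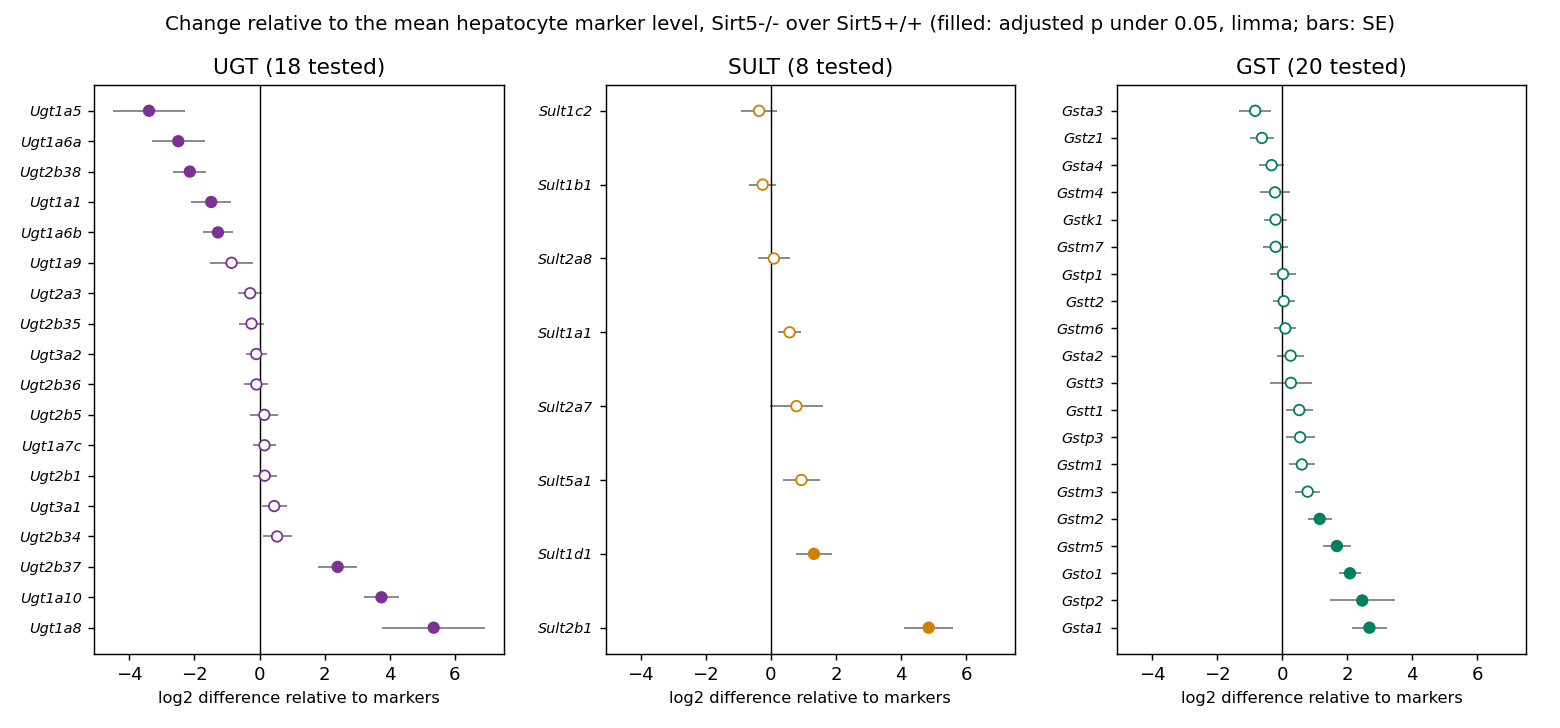
Log2 difference of each tested member between Sirt5-/- and Sirt5+/+ livers after subtracting the mean hepatocyte marker level of the same library, with bars for the standard error and filled points for adjusted p under 0.05 (limma). The 5 filled points left of 0 are all UGT genes (-3.40 to -1.28), and no SULT or GST point is filled there.

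Markers of other cell types also differed, given as summed CPM. Bile duct cell markers summed to 795 to 876 in Sirt5-/- livers and 167 to 421 in Sirt5+/+ livers (2 of 13 higher). Macrophage and monocyte markers summed to 1088 to 2066 in Sirt5-/- livers and 328 to 441 in Sirt5+/+ livers (6 of 13 higher, 3 lower). Stellate cell and fibroblast markers summed to 2212 to 2420 in Sirt5-/- livers and 436 to 721 in Sirt5+/+ livers (5 of 11 higher, 1 lower).

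Lymphocyte markers (4 of 9 higher) summed to 28.5 to 30.4 in Sirt5-/- livers and 7.71 to 9.96 in Sirt5+/+ livers. Cell division markers (8 of 8 higher) summed to 52.7 to 83.2 in Sirt5-/- livers and 11.4 to 22.8 in Sirt5+/+ livers. Endothelial markers (5 of 10 lower) summed to 128 to 138 in Sirt5-/- livers and 141 to 234 in Sirt5+/+ livers. No marker of these lists was at 0 in all 6 libraries. Their part in the members' changes was not tested.

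The genes that supply the cofactors were also lower in part. Of 7 genes for UDP-glucuronic acid supply, 5 were lower (median log2 fold change -1.51). Slc35d1, which carries UDP-glucuronic acid into the endoplasmic reticulum, had 52.0, 36.0 and 28.2 CPM in Sirt5-/- livers and 133, 98.6 and 114 CPM in Sirt5+/+ livers. It fell by 1.58 on the log2 scale (edgeR, adjusted p = 0.00579), and Slc35d2, another nucleotide sugar transporter, fell by 1.72 (edgeR, adjusted p = 0.00260).

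Of 11 genes for PAPS supply, 5 were lower and 2 higher (median -1.18). The sulfate transporter Slc26a1 fell by 2.41 (edgeR, adjusted p = 0.00344) and the sulfur transferase Tst by 2.20 (edgeR, adjusted p = 0.00495). The 2 higher genes, named after their values were seen, were the PAPS synthase Papss1 at 0.84 (edgeR, adjusted p = 0.0332) and the sulfate transporter Slc26a2 at 1.11 (edgeR, adjusted p = 0.0368), each called in 11 of 18 settings. The other PAPS synthase, Papss2, was lower at -1.56 (edgeR, adjusted p = 0.00548) and was also named after its values were seen.

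Of 16 genes for glutathione synthesis and turnover, 8 were lower (median -1.18). Gls2, the liver glutaminase, fell by 2.84 (edgeR, adjusted p = 0.00346) and Oplah, the oxoprolinase of the glutathione cycle, by 1.86 (edgeR, adjusted p = 0.00421).

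In a list of microsomal glutathione transferases and proteins related to glutathione transferases, 6 of 11 were higher and 1 was lower (median 1.60). The 6 were Alox5ap, Hpgds, Ltc4s (the leukotriene C4 synthase) and the chloride channel proteins Clic1, Clic4 and Clic5. The microsomal transferases tested did not pass: Mgst1 was at -1.26 (edgeR, adjusted p = 0.0612) and Mgst3 at -0.30 (edgeR, adjusted p = 0.572), or 0.54 with library totals. Ltc4s, the Clic genes and the Mgst genes were named after their values were seen. Alox5ap, which serves leukotriene synthesis, had 22.0, 37.9 and 44.2 CPM in Sirt5-/- livers and 5.41, 5.0 and 6.81 CPM in Sirt5+/+ livers. It rose by 2.61 (edgeR, adjusted p = 0.00180). Hpgds, the prostaglandin D synthase of the sigma class, rose by 3.45 (edgeR, adjusted p = 0.00250). Both are known from myeloid and mast cells. Of the 13 macrophage and monocyte markers, 6 were higher in Sirt5-/- livers and 3 were lower, namely the resident macrophage markers Marco (-2.57), Clec4f (-3.42) and Cd5l (-3.26). The part of those cells in these rises was not tested.

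Of 10 other conjugating enzymes, 8 were lower (median -1.70) and 2, Tpmt and Nat2, did not pass; with library totals the count lower was 0 of 10 by edgeR (2 at an unadjusted p under 0.05; median -1.13). Among them were Gm4952 at -1.99 (edgeR, adjusted p = 0.00156) and Baat, which joins bile acids to taurine or glycine, at -1.76 (edgeR, adjusted p = 0.00235). Of 8 deconjugating, epoxide or ester hydrolases, 6 were lower (median -1.93), among them the soluble epoxide hydrolase Ephx2 at -2.57 (edgeR, adjusted p = 0.00244). The carboxylesterase Ces2a, which shares 30.2% of its words, was at -2.20 (edgeR, adjusted p = 0.00410). The sulfatase genes Arsa at -1.655 and Arsg at -1.752 were lower (edgeR, adjusted p = 0.00875 and 0.00586), each called in 17 of 18 settings. Gusb, the glucuronidase that removes glucuronic acid, at 0.55 and the sulfatase gene Arsb at 1.03 did not pass (edgeR, adjusted p = 0.329 and 0.184). Tpmt, Nat2, Gusb, Arsa, Arsb and Arsg were chosen with their values known.

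The conjugate exporters were split, with 3 of 7 lower and 3 higher. Abcc5 rose by 1.98 (edgeR, adjusted p = 0.00176) and Abcc4, an exporter of the basolateral membrane, rose by 1.90 (edgeR, adjusted p = 0.00256). Abcc2, the canalicular exporter of conjugates, was lower at -1.56 (edgeR, adjusted p = 0.0180). It was called in 14 of 18 settings, not with the replicate block, with library totals (-0.92; edgeR, adjusted p = 0.393) or without Sirt5-/- replicate 2 or 3, and was named after its values were seen.

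Of 21 regulators, 12 were lower and 1 higher (median -1.13). The liver factor Foxa3 fell by 2.81 (edgeR, adjusted p = 0.00156). Nr1i3, which encodes CAR, fell by 1.86 (edgeR, adjusted p = 0.00188), but it shares 68.1% of its words with Tomm40l on the opposite strand. Ahr at 0.30 and Nfe2l2, which encodes NRF2, at 0.31 did not pass the test (edgeR, adjusted p = 0.438 and 0.424). Both were chosen with their values known.

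Of 12 target genes of AHR, CAR and PXR outside the members, 9 were lower (median -1.86). Cyp3a13 fell by 2.19 (edgeR, adjusted p = 0.00231). Cyp1a1 had 0.175, 0.331 and 0.276 CPM in Sirt5-/- livers and 2.47, 3.07 and 1.57 CPM in Sirt5+/+ livers, a fall of 3.14 (edgeR, adjusted p = 0.00327).

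With library totals (edgeR), the lower counts were 1 of 7 genes for UDP-glucuronic acid supply, 1 of 11 for PAPS supply, 2 of 16 for glutathione, 0 of 10 other conjugating enzymes, 2 of 8 hydrolases, 0 of 7 exporters, 4 of 21 regulators and 3 of 12 target genes. The higher counts were then 0 of 11 for PAPS supply, 1 of 16 for glutathione, 0 of 21 regulators, 6 of 11 in the list with the microsomal transferases and 3 of 7 exporters. At an unadjusted p under 0.05 the counts of 0 became 2 other conjugating enzymes and 2 exporters lower, and 2 PAPS genes and 1 regulator higher. Of the list genes named, Slc35d1, Slc35d2, Tst, Papss1, Papss2, Slc26a2, Oplah, Gm4952, Baat, Ces2a, Arsa, Arsg, Abcc2, Abcc3, Abcc6, Nr1i3 and Cyp3a13 lost their calls with library totals.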

How the data were processed

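RNA of 3 Sirt5-/- and 3 Sirt5+/+ livers was compared from one deposited table. The submitters' processing notes name DESeq2 1.24.0, RSEM 1.3.1 and HISAT2 2.1.0; their roles, options and the genome build are not given in the sources used here. The expected counts (estimated reads per gene, unscaled) were used as deposited by the authors. The TPM values, scaled by the authors for length and depth, served to compare levels between genes. The authors also deposited log2 fold changes and p-values from a comparison of their own, which were set beside the calls made here. All 55536 IDs and names match GENCODE M21, so positions are on GRCm38.

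Expected counts were rounded, filtered with edgeR's filterByExpr (minimum count 10, total 15) and scaled with TMM factors of 0.396 to 1.68. Genotype was the only term of the two-sided quasi-likelihood test (edgeR 4.0.16, R 4.3.3), adjusted by Benjamini-Hochberg over 14799 genes with 0.05 as the threshold. Each standard error is the absolute log2 fold change over the root of its F value. For the relative scale, the mean log2 CPM (prior count 2) of 18 hepatocyte markers was subtracted in each library before limma 3.58.1. Shared sequence was counted in 31-base words over GENCODE transcripts, on both strands, since the counting is not stated to use strand. Promoters are the 250 bases before RefSeq starts, found for 56 members. The steps were tested on simulated data.

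Genes described with values were, per family, the 3 with the highest mean TPM, and among called genes of at least 1 CPM the 3 largest rises and the 4 largest falls; each pathway list gave up to 2 genes with the smallest p. The lists were drawn from textbook knowledge. The members and lists were chosen with earlier results of these data known. Alternatives were limma-voom and DESeq2 1.42.0 as tests, scaling by upper quartiles, by DESeq2 size factors or by library totals, a replicate block, the authors' calls, filtering at 1 CPM in 3 libraries with at least 50 counts on average, or not at all, leaving out libraries, removal of mitochondrial genes, the mitochondrial share as a covariate, summed Ugt1a entries, and the median of the markers. Floors of 3 counts cover counting error only.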

Additional observations from a re-analysis of the deposited data

How the results depend on the processing

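Over all genes, 5100 passed the test with TMM factors (2575 higher and 2525 lower), against 2763 with library totals (2438 higher and 325 lower) and 2531 to 7647 when each library was left out in turn; the high value was without Sirt5+/+ replicate 3, and the counts were 2677 and 2531 without Sirt5-/- replicates 2 and 3. With library totals 7 UGT, 1 SULT and 3 GST genes passed and the GST median was -1.16. Summing the Ugt1a entries left 9 of 11 UGT entries past the threshold, and the stricter filter 3 of 5 SULT genes. Without Sirt5-/- replicate 1 and Sirt5+/+ replicate 3, the libraries with the most mitochondrial reads, 17 GST genes passed. Leaving out each library in turn gave 10 to 16 UGT, 2 to 5 SULT (2 without Sirt5-/- replicate 2 or 3) and 8 to 16 GST genes. Sult1d1, at -0.55, turned to 0.19 with library totals and ran from -1.25 to 0.25 with each library left out. On the scale relative to hepatocyte markers 15 members passed, and 10 to 23 with each library left out, the high value without Sirt5+/+ replicate 3. Of 31 called members, 6 (Gsta3, Gstz1, Ugt1a1, Ugt1a6a, Ugt1a6b and Ugt2b38) were called in every setting in which they were fitted, 14 lost the call with library totals alone and 11 in some other setting. The authors' deposited table calls 14 of 15 UGT, 5 of 5 SULT and 11 of 11 GST genes in the same direction. The cause of these shifts was not tested. Replicate numbers did not pair the samples (correlations of same-numbered deviations -0.19, 0.115 and -0.204). With the replicate block 3643 genes passed, and of the called members 14 UGT, 4 SULT and 10 GST genes; among those described, Sult2a8 and Ugt2b5 lost the call. Depth limits values under 3 counts, which concerns Sult2b1 and the Ugt1a5 and Ugt1a8 zeros.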
